A study of Rattus norvegicus with 16 samples.

Results

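The kidney makes glucose as well as filtering it. Cells of the proximal tubule take up lactate, glutamine and other precursors, turn them into phosphoenolpyruvate and pass the carbon up the gluconeogenic pathway to free glucose. Glutamine breakdown in the same cells releases ammonium, which carries acid into the urine, and leaves a carbon skeleton that can enter gluconeogenesis. Alanine transaminases exchange the amino group between alanine and glutamate and so tie pyruvate to glutamate in both directions.

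The 9 genes described here cover these steps, and they were picked by symbol from the 35849 genes of the deposited table. Pck1 encodes the cytosolic and Pck2 the mitochondrial phosphoenolpyruvate carboxykinase. Fbp1 encodes fructose-1,6-bisphosphatase, G6pc the catalytic subunit of glucose-6-phosphatase, and Slc37a4 the carrier that brings glucose-6-phosphate to that enzyme in the endoplasmic reticulum. Slc38a3 encodes a glutamine transporter and Glud1 the mitochondrial glutamate dehydrogenase. Gpt encodes the cytosolic and Gpt2 the mitochondrial alanine transaminase. The table's Ensembl identifiers are ENSRNOG00000028616 for Pck1, ENSRNOG00000018536 for Pck2, ENSRNOG00000017597 for Fbp1, ENSRNOG00000051171 for G6pc, ENSRNOG00000011361 for Slc37a4, ENSRNOG00000016827 for Slc38a3, ENSRNOG00000057367 for Glud1, ENSRNOG00000033915 for Gpt and ENSRNOG00000059579 for Gpt2. All 9 symbols matched 1 gene each, and all 9 genes passed the filter on low counts in every comparison.

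RNA from the kidney of 16 male Sprague Dawley rats was sequenced. There were 4 rats in a normal group, a DN group and 2 SIN groups, which are told apart by their dose, and the study describes 6 rats per group. Rats were 6 to 8 weeks old at the start. DN stands for diabetic nephropathy. The DN group and both SIN groups were injected with streptozotocin, a toxin of pancreatic beta cells, at 45 mg/kg, ate a high-glucose and high-fat diet and had been selected for a blood glucose above 16.7 mmol/L. The normal group received citrate buffer and a normal diet, so toxin and diet cannot be told apart in any comparison with it. The DN group was given vehicle, and the SIN groups were given sinomenine, an alkaloid, by daily gavage for 8 weeks at 20 or 40 mg/kg. Whether the rats were fasted when the kidneys were taken, and at what hour that was, is not given in the sources used here.

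Each rat had between 19616312 and 25217030 estimated counts in total. Levels are in CPM, which scales each library to the same size, and fold changes, standard errors (SE) and adjusted p-values come from edgeR's quasi-likelihood test, a two-sided test on the 8 rats of each comparison with Benjamini-Hochberg adjustment over all genes tested. A gene is said to have risen or fallen where the adjusted p was under 0.05. Within a group the library serial numbers are consecutive, so a library batch and the group cannot be told apart. Markers of the proximal tubule were all detected, 12 of 12 in all 16 rats, and their summed level was 15403 to 21703 CPM in the normal, 13997 to 19556 in the DN, 13942 to 17629 in the SIN (20 mg/kg) and 14209 to 20226 in the SIN (40 mg/kg) group. These sums overlapped between all groups, although single markers moved in the DN group, where Slc7a13 fell by 1.51 on the log2 scale (SE 0.13, adjusted p = 0.00113) and Ggt1 rose by 0.53 (SE 0.13, adjusted p = 0.0234). Hepatocyte markers, which would mark RNA from the other gluconeogenic organ, summed to 0.781 to 1.31 CPM in the normal, 1.59 to 2.63 in the DN, 3.88 to 8.34 in the SIN (20 mg/kg) and 2.34 to 4.16 CPM in the SIN (40 mg/kg) rats. Of these 5 genes 2 could be tested, Cps1 and Serpina1, and both rose at 20 mg/kg over normal and 0 of 2 at 40 mg/kg, while Ttr was at 0 in all but 3 rats. The sum of adipocyte markers, 4 genes led by Cidec, was 59.1 to 67.2 CPM in the normal, 84.5 to 126 in the DN, 96.0 to 146 in the SIN (20 mg/kg) and 63.2 to 123 CPM in the SIN (40 mg/kg) group, with 1 of 3 tested called higher in DN over normal. In the SIN (40 mg/kg) group only replicate 1 was at 123 CPM. The other rats of that group were at 63.2 to 64.3 CPM, within the normal range. The intercalated cell sums of the normal and DN rats were apart (354 to 435 CPM in normal and 263 to 348 CPM in DN rats, 2 of 5 markers called lower). The sums overlapped, with other means, for the thick ascending limb (mean 4409 and 2994 CPM, 1 of 4 called lower), collecting duct principal cells (mean 627 and 1281 CPM, 0 of 5 called) and stroma and smooth muscle (mean 314 and 444 CPM, 2 of 6 called higher). For stroma and smooth muscle, replicate 3 of the DN group was at 783 CPM. The other DN rats were at 324 to 345 CPM, within the normal range of 270 to 370 CPM. The part of these cell types in the results was not tested. In bulk tissue, fewer cells of a type and less RNA per cell cannot be told apart.

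The genes spanned a wide range of levels. Per kilobase of the gene length that the table lists, the mean over 16 rats was 2332 CPM per kb for Pck1, 1132 for Fbp1, 359 for Glud1, 321 for G6pc, 139 for Slc37a4, 107 for Slc38a3, 11.7 for Gpt2, 11.5 for Pck2 and 6.996 for Gpt. Pck1 ranked 21 among 16404 genes kept over all rats and Fbp1 ranked 49, whereas Gpt ranked 7956. Of the neighbours in this order, the ranges over rats were apart only between Fbp1 and Glud1 and between Slc38a3 and Gpt2. Within rats, Pck1 exceeded Fbp1 in 16 of 16, Glud1 exceeded G6pc in 10 of 16 and Gpt2 exceeded Pck2 in 8 of 16. These 8 were the SIN rats, and Gpt2 lay below Pck2 in every normal and DN rat. The group means of Glud1 and G6pc were 402 and 405 CPM per kb in normal and 342 and 253 in DN rats. They were 343 and 287 in the SIN (20 mg/kg) and 350 and 340 in the SIN (40 mg/kg) rats. The cytosolic and mitochondrial carboxykinases therefore sat far apart in the same tissue, and the alanine transaminases were the least abundant with Pck2. The order of these last genes depended on the group. Gpt2, Gpt and Pck2 had means of 3.14, 4.60 and 8.89 CPM per kb in normal and 8.63, 8.70 and 14.2 in DN rats. Their means were 17.9, 8.59 and 11.1 in the SIN (20 mg/kg) and 17.1, 6.09 and 11.7 in the SIN (40 mg/kg) rats.

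**Figure D1:**
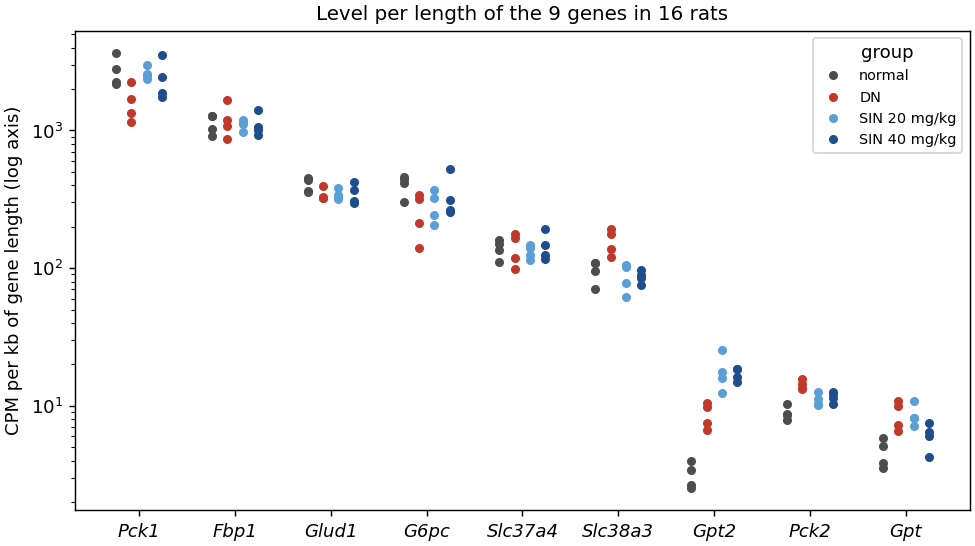
Level of each gene in CPM per kilobase of gene length (log axis) in the 16 rats, 1 point per rat, coloured by group, with genes ordered by their mean. The 6 genes at the left lie between 61.5 and 3651 CPM per kb, and Gpt2, Pck2 and Gpt lie between 2.53 and 25.5.

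Promoter windows of RefSeq (build GRCr8, 250 bases before to 50 bases after the start) were found for 7 of the 9 genes, G6pc under its RefSeq symbol G6pc1. They are not on the build that the counts were made on, so they are shown only as sequence. Those of Pck1 and G6pc, the hormone-regulated enzymes at either end of the pathway, of Pck2 and of Gpt2 are printed because the DN over normal differences of these genes had different signs. Capitals mark letters that match a searched motif on either strand.
Pck1, chr3:182348322-182348621, + strand: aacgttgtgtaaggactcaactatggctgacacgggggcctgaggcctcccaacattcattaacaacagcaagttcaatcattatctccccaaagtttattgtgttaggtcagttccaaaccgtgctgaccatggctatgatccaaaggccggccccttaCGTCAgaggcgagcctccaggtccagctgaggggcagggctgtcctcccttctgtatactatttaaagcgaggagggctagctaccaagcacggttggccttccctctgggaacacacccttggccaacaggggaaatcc
G6pc, chr10:86807409-86807708, + strand: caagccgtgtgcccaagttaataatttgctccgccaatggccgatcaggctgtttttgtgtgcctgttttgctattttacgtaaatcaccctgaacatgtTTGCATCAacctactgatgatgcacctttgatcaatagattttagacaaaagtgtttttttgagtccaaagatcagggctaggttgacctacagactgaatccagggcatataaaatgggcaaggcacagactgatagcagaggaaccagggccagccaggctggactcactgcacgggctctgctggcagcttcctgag
Pck2, chr15:32997603-32997902, + strand: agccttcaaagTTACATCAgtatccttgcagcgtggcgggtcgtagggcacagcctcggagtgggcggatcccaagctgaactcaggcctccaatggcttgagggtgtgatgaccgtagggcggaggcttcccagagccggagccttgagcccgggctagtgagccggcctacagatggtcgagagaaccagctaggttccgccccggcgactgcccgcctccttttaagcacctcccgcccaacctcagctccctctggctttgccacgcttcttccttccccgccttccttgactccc
Gpt2, chr19:37732710-37733009, - strand: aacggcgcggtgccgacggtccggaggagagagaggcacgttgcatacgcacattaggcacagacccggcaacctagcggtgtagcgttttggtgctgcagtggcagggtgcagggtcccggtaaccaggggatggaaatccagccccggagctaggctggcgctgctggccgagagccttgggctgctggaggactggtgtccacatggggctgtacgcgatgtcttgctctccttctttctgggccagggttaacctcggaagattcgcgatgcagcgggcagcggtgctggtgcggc

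The motifs searched on both strands were the cAMP response element TGACGTCA, its core TGACG (which the full element contains), a FOXO motif TGTTTAC, the C/EBP-ATF response element TGATGNAA and the E-box CACGTG. The Pck1 window held TGACG from base -90 relative to the start, on the minus strand, and both windows of Slc37a4 (not printed) held TGACG as well. The G6pc window held TGATGNAA from base -150 on the minus strand. The Pck2 window held TGATGNAA from base -239 on the minus strand, and the Gpt2 window held none of these motifs. Among the windows of 27457 genes, 22% held TGACG and 3.82% TGATGNAA. The full element TGACGTCA (1.91% of genes), TGTTTAC (3.76%) and CACGTG (6.65%) were in none of the 7 genes' windows. A match is a description of these letters only.

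The comparison of the DN with the normal group asks what the diabetic model did to these genes. Both alanine transaminases, the mitochondrial carboxykinase and the glutamine transporter rose, Gpt2 by 2.75-fold, Gpt by 1.90-fold, Slc38a3 by 1.65-fold and Pck2 by 1.59-fold. By the quasi-likelihood test none of the 9 fell, whereas DESeq2 also called Pck1 and G6pc lower (6 of 9 genes, 26.4% of all genes) and the exact test Pck1 (5 of 9, 21.5% of all genes). Pck1 and G6pc had lower means in the DN group that did not pass the test, and Fbp1, Slc37a4 and Glud1 overlapped between the groups. In all, 4 of 9 genes were called, and among all 15775 genes tested 19.5% were called, 8.74% in the upward and 10.8% in the downward direction. The DN and normal rats were apart for the same 4 genes, and for 24.3% of all genes. The median log2 fold change was 0.10 over the 9 genes and 0.00 over all genes tested.

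Pck1 catalyses the step that commits oxaloacetate to glucose. It was at 9568, 7288, 5893 and 5738 CPM in the normal rats (replicates 1 to 4) and at 3036, 3499, 4466 and 5909 CPM in the DN rats. Replicate 4 of the DN group lay above the lowest pair of normal rats, and the other DN rats lay below all normal rats. The log2 fold change was -0.75 (SE 0.24, 95% interval -1.28 to -0.23, adjusted p = 0.0501), just outside the threshold. Over 15 alternatives the adjusted p ran from 0.00782 to 0.126, and without replicate 4 of the DN group it was 0.0232. Pck1 alone took 0.589% to 0.915% of all counts in normal and 0.305% to 0.533% in DN rats.

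G6pc carries out the last step, the release of free glucose. Its levels were 1110, 1084, 730 and 999 CPM in the normal and 514, 337, 774 and 827 CPM in the DN rats. The groups overlapped through replicate 3 of the normal group, and the log2 fold change was -0.68 (SE 0.26, adjusted p = 0.0941). Across alternatives the adjusted p was 0.0377 to 0.196, the lowest with DESeq2.

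Between these enzymes, Fbp1 and Slc37a4 gave group means that lay close together. Fbp1 was at 1852, 1842, 1330 and 1488 CPM in normal and at 1261, 1555, 1736 and 2406 CPM in DN rats (log2 fold change 0.10, 95% interval -0.35 to 0.54, adjusted p = 0.756). Slc37a4 was at 306, 329, 228 and 281 CPM in normal and at 202, 245, 343 and 367 CPM in DN rats (log2 fold change 0.02, 95% interval -0.41 to 0.45, adjusted p = 0.96). For both genes the DN rats were spread on either side of the normal rats, and both intervals span 0.

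Pck2, the mitochondrial counterpart of Pck1, rose. It was at 16.6, 19.8, 15.2 and 16.8 CPM in the normal and at 25.4, 30.0, 26.1 and 27.6 CPM in the DN rats, and every DN rat lay above every normal rat. The log2 fold change was 0.67 (SE 0.11, adjusted p = 0.00669), and Pck2 was called in 15 of 15 alternatives. Within each rat, the log2 ratio of Pck1 to Pck2 CPM was 8.68 ± 0.34 (SD, n = 4) in the normal group and 7.23 ± 0.42 in the DN group, with no overlap.

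The glutamine transporter gene Slc38a3 was at 263, 262, 169 and 230 CPM in the normal and at 430, 466, 293 and 336 CPM in the DN rats. All DN rats lay above all normal rats, with a log2 fold change of 0.72 (SE 0.18, adjusted p = 0.0259). The call did not hold without replicate 3 or 4 of the normal group or replicate 1 or 2 of the DN group, where the adjusted p was 0.0602 to 0.0733, and over all alternatives it ran from 0.00145 to 0.0733. Glud1, the next enzyme on the route from glutamine to the citric acid cycle, was at 1302, 1249, 1042 and 1022 CPM in normal and at 942, 923, 925 and 1129 CPM in DN rats. The first 3 DN rats lay below all normal rats and replicate 4 did not, and the log2 fold change was -0.24 (SE 0.12, adjusted p = 0.185).

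Gpt was at 8.97, 10.2, 6.64 and 6.14 CPM in normal and at 17.4, 12.6, 11.5 and 19.0 CPM in DN rats, so the groups were apart (log2 fold change 0.92, SE 0.22, adjusted p = 0.0223). It lost its call without replicate 3 or 4 of the normal group, without replicate 1 of the DN group and with the replicate number as a block, with an adjusted p of 0.0527 to 0.0686 in these 4 fits and a range of 0.00115 to 0.0686 over all 15. Gpt2 was at 9.39, 8.10, 5.99 and 6.28 CPM in normal and at 15.8, 17.7, 23.4 and 24.9 CPM in DN rats. The lowest DN rat was above the highest normal rat, the log2 fold change was 1.46 (SE 0.20, adjusted p = 0.00421), and the call stood in 15 of 15 alternatives.

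**Figure D2:**
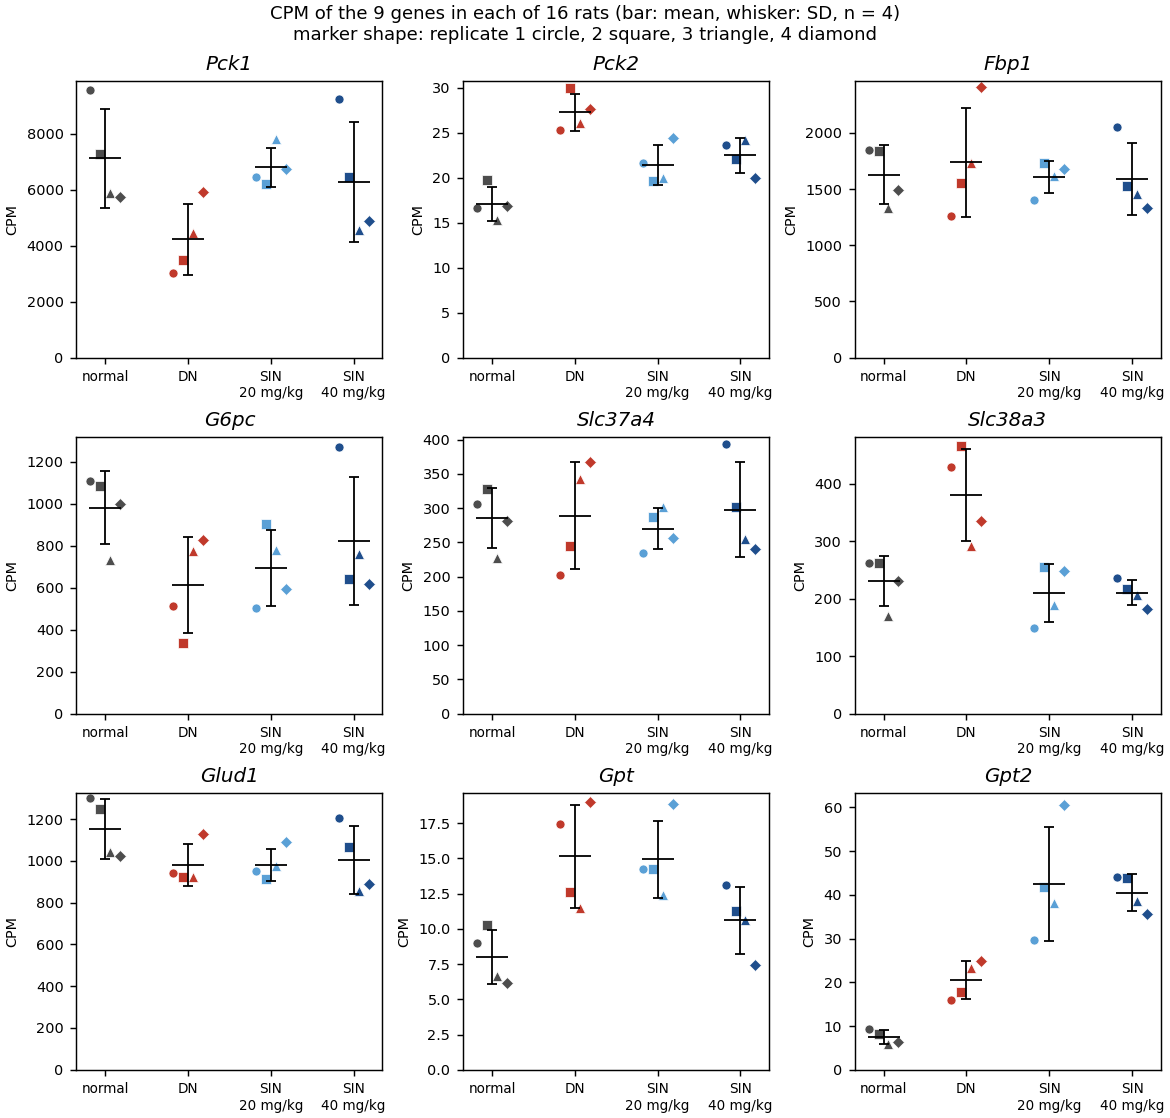
CPM of each gene (vertical axes start at 0) in the 4 rats of each group, with the mean as a bar and the SD as a whisker, and with marker shape giving the replicate number. Pck2, Slc38a3, Gpt and Gpt2 in DN rats lie above all normal rats, Slc38a3 in both SIN groups lies below all DN rats, and Gpt2 in both SIN groups lies above all DN rats.

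Comparing the SIN groups with the DN group asks what sinomenine did in the diabetic rats. Gpt2 had a fitted level 2.08-fold and 2.00-fold that of the DN group at 20 and 40 mg/kg, Slc38a3 one of 0.552-fold and 0.558-fold, and Pck1 had a higher and Pck2 a lower mean than in the DN group. None of these differences passed the adjusted threshold. At 20 mg/kg 0 of the 9 genes and 0 of 15724 tested genes (0%) were called by the quasi-likelihood test, with 4 of the 9 and 15.4% of all genes at an unadjusted p under 0.05. At 40 mg/kg 0 of 9 and 0 of 15530 genes (0%) were called, with 4 of the 9 and 17.1% of all genes at an unadjusted p under 0.05. DESeq2 called 3 of the 9 at 20 mg/kg and 2 at 40 mg/kg, where it called 1.4% and 2.73% of all genes. The exact test of edgeR called 2 at each dose, and 0.566% and 1.04% of all genes. Both comparisons rest on the same 4 DN rats, which also stand in the comparison with the normal group.

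Gpt2 was at 29.6, 41.9, 38.0 and 60.5 CPM in the SIN (20 mg/kg) rats and at 44.1, 43.9, 38.5 and 35.5 CPM in the SIN (40 mg/kg) rats. Every SIN rat lay above every DN rat, whose highest level was 24.9 CPM. The log2 fold change over the DN group was 1.06 (SE 0.22, adjusted p = 0.27) at 20 mg/kg and 1.00 (SE 0.15, adjusted p = 0.148) at 40 mg/kg. With DESeq2 the adjusted p was 0.00328 and 1.55e-05, the lowest of ranges that reached 0.544 and 0.392 over the alternatives.

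Slc38a3 was at 149, 255, 188 and 248 CPM with 20 mg/kg and at 236, 216, 207 and 183 CPM with 40 mg/kg. All 8 SIN rats lay below all DN rats, whose lowest level was 293 CPM, and within or below the range of the normal group. The log2 fold change over the DN group was -0.86 (SE 0.20, adjusted p = 0.27) at the lower and -0.84 (SE 0.16, adjusted p = 0.175) at the higher dose. DESeq2 gave an adjusted p = 0.00757 and 0.000126, and the alternatives reached 0.544 and 0.392. Groups that did not overlap in either direction made up 8.86% of all genes tested at 20 mg/kg and 10.7% at 40 mg/kg, and 4 and 3 of the 9 genes.

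Pck1 was at 6465, 6227, 7809 and 6739 CPM in the SIN (20 mg/kg) rats, all above the DN rats, and at 9260, 6456, 4564 and 4887 CPM in the SIN (40 mg/kg) rats, which overlapped with them. The log2 fold change was 0.69 (SE 0.20, adjusted p = 0.27) and 0.59 (SE 0.26, adjusted p = 0.293). At 20 mg/kg the adjusted p was 0.041 with DESeq2 and up to 0.544 in the other alternatives. Pck2 was at 21.6, 19.7, 19.9 and 24.4 CPM with 20 mg/kg and at 23.7, 22.1, 24.2 and 19.9 CPM with 40 mg/kg, below all DN rats at both doses, with log2 fold changes of -0.35 (SE 0.11, adjusted p = 0.27) and -0.26 (SE 0.10, adjusted p = 0.245). The log2 ratio of Pck1 to Pck2 within a rat was 8.31 ± 0.22 (SD, n = 4) with 20 mg/kg and 8.07 ± 0.44 with 40 mg/kg.

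Gpt had another order of group means than Gpt2. It was at 14.3, 14.3, 12.4 and 18.8 CPM with 20 mg/kg and at 13.1, 11.3, 10.6 and 7.42 CPM with 40 mg/kg. Its log2 fold change over the DN group was -0.02 (SE 0.19, adjusted p = 0.972) at the lower and -0.50 (SE 0.21, adjusted p = 0.277) at the higher dose. The log2 ratio of Gpt2 to Gpt CPM within a rat was -0.10 ± 0.19 (SD, n = 4) in the normal, 0.44 ± 0.48 in the DN, 1.48 ± 0.29 in the SIN (20 mg/kg) and 1.96 ± 0.22 in the SIN (40 mg/kg) group.

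Other genes of the 9 overlapped between each SIN group and the DN group. G6pc was at 502, 901, 781 and 594 CPM with 20 mg/kg and at 1271, 642, 761 and 616 CPM with 40 mg/kg, with log2 fold changes of 0.18 (95% interval -0.44 to 0.81) and 0.44 (-0.25 to 1.13). Fbp1 ran from 1406 to 1731 CPM and from 1334 to 2053 CPM, with log2 fold changes of -0.11 at both doses. Slc37a4 ran from 234 to 301 CPM and from 241 to 394 CPM, and Glud1 from 913 to 1091 CPM and from 856 to 1206 CPM. The log2 fold changes of Slc37a4 and Glud1 lay between -0.10 and 0.06.

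Against the normal group, in a comparison that uses no DN rat, Gpt2 had the widest difference of the 9 genes. It rose by 5.71-fold at 20 mg/kg (log2 fold change 2.51, SE 0.23, adjusted p = 0.000425) and by 5.48-fold at 40 mg/kg (2.45, SE 0.16, adjusted p = 9.09e-05). Gpt also rose at 20 mg/kg (log2 fold change 0.90, SE 0.20, adjusted p = 0.0239), where all 4 rats lay above the normal rats, and this call was lost without replicate 3 or 4 of the normal or replicate 2 or 4 of the SIN (20 mg/kg) group. At 40 mg/kg Gpt overlapped with the normal group (0.41, SE 0.22, adjusted p = 0.288). In all 2 of 9 genes at 20 mg/kg and 1 of 9 at 40 mg/kg were called, where 6.36% and 5.97% of all genes were, 2.77% and 2.28% in the upward direction.

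Pck2 had means above normal in the SIN groups that did not pass the test, with log2 fold changes of 0.32 (SE 0.12, adjusted p = 0.152) and 0.40 (SE 0.11, adjusted p = 0.0696), and all rats given 40 mg/kg lay above all normal rats. Slc38a3 differed from the normal group by -0.14 (95% interval -0.56 to 0.29) and -0.13 (-0.45 to 0.19) on the log2 scale. Pck1 differed by -0.07 (-0.44 to 0.31) and -0.17 (-0.72 to 0.38), and G6pc by -0.50 (-0.93 to -0.06, adjusted p = 0.178) and -0.24 (-0.77 to 0.28). The same 4 normal rats stand in these comparisons and in that with the DN group.

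**Figure D3:**
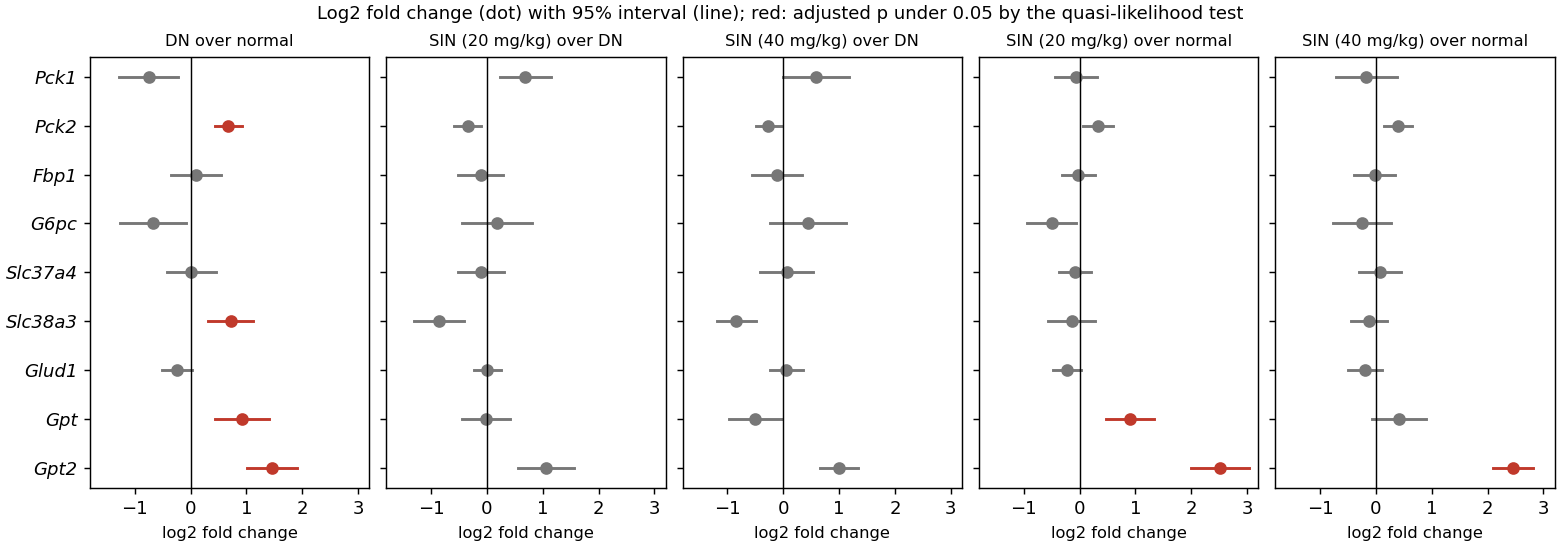
Log2 fold change (horizontal axis) of each gene in 5 comparisons, with its 95% interval as a line and in red where the adjusted p was under 0.05. Red marks Pck2, Slc38a3, Gpt and Gpt2 for DN over normal, Gpt and Gpt2 for SIN (20 mg/kg) over normal and Gpt2 for SIN (40 mg/kg) over normal, and no gene for SIN over DN.

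The doses were compared directly as well. No gene of the 9 was called between the higher and the lower dose of SIN by the quasi-likelihood test, where 0.00639% of 15657 genes were, and DESeq2 and the exact test also called 0 of the 9, and 0.109% and 0.0383% of all genes. Gpt was the single one with an unadjusted p under 0.05 (log2 fold change of the higher over the lower dose -0.50, 95% interval -0.92 to -0.07, adjusted p = 0.961), against 4.98% of all genes. The interval for Gpt2 was -0.49 to 0.35 and that for Slc38a3 was -0.36 to 0.37, so differences between the doses within these limits were not excluded.

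Rats of the same group differed in a manner shared by several of the genes. In the SIN (40 mg/kg) group replicate 1 was the highest of the 4 rats for Pck1, Fbp1, G6pc and Slc37a4, in the DN group replicate 4 was the highest for all 4 genes, and in the normal group replicate 1 was the highest for 3 of them. The pattern was not particular to these genes. Glud1 and Gpt2 were also highest in each of these rats, Gpt in the SIN (40 mg/kg) and DN rats, and Slc38a3 in the SIN (40 mg/kg) and normal rats. How often these rats were highest over all genes was not counted. The summed injured tubule markers (Havcr1, Lcn2, Spp1, Krt20 and Vcam1, mostly Spp1) were lowest in those same rats, at 258 CPM of a range up to 1208 in the SIN (40 mg/kg) group, at 321 CPM of a range up to 993 in the DN group and at 137 CPM of a range up to 508 in the normal group. In the SIN (20 mg/kg) group this was not so: Pck1 and Slc37a4 were highest in replicate 3, which had the lowest injured tubule sum (549 CPM), but Fbp1 and G6pc were highest in replicate 2 (980 CPM). Proximal tubule markers were highest in replicate 1 of the SIN (40 mg/kg) group (20226 CPM) and of the normal group (21703 CPM), but among DN rats in replicate 3 (19556 CPM) rather than 4 (18743 CPM). Of the injured tubule markers, 1 of 4 tested rose in the DN over the normal group (Havcr1, log2 fold change 2.23, SE 0.55, adjusted p = 0.0244) and 1 fell (Vcam1, -0.98, SE 0.14, adjusted p = 0.00457). The part of tubule content or injury in the levels of the 9 genes was not tested.

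**Figure D4:**
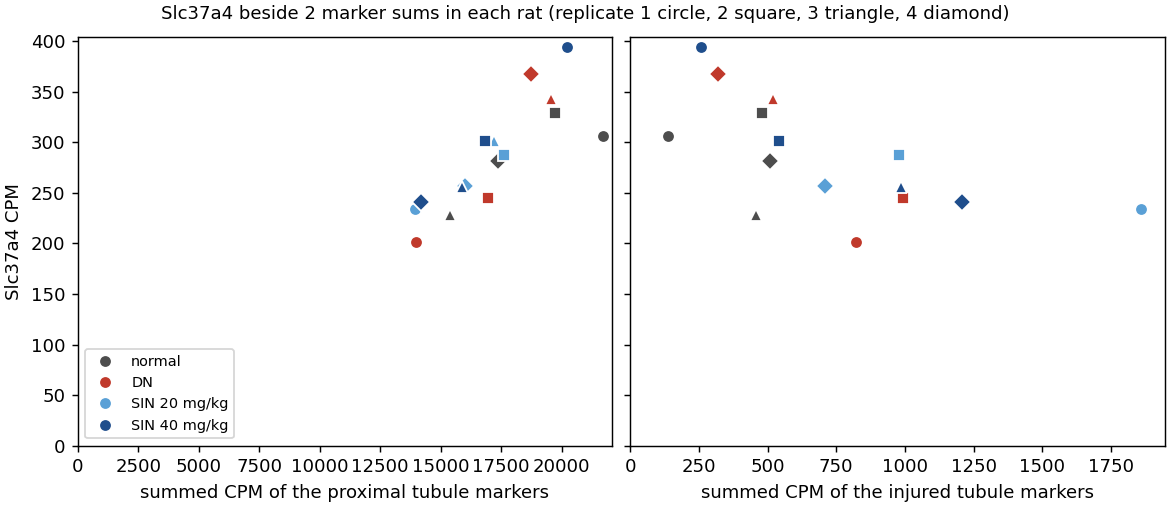
Slc37a4 CPM (vertical axis) of each rat against the summed CPM of 12 proximal tubule markers (left) and of 5 injured tubule markers (right), coloured by group. Slc37a4 is shown because its group means were close together, from 270 to 298 CPM, and its highest rat (394 CPM) had a proximal tubule sum of 20226 CPM and an injured tubule sum of 258 CPM.

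Genes with the most similar pattern were sought among 14444 genes by the root mean square difference in centred log2 CPM over the 16 rats, a description with no test. For Gpt2 the nearest named genes were Per3 (0.40) and Dbp (0.42), both driven by the circadian clock, while the log2 CPM of Gpt2 itself had an SD of 1.04. Mean CPM, in the order normal, DN, SIN at 20 mg/kg and SIN at 40 mg/kg, was 8.76, 17.6, 36.0 and 34.2 for Per3 and 29.8, 103, 179 and 191 for Dbp, beside 7.44, 20.5, 42.5 and 40.5 for Gpt2. The order of the normal, DN and SIN means was the same for these genes, and also for the summed hepatocyte markers, at 0.921, 2.25, 5.96 and 3.45 CPM, whose part in the result was not tested. The nearest to Pck1 were Clmp (0.21), Epb41l3 (0.22) and St6galnac3 (0.22), against an SD of 0.44 for Pck1. The nearest to G6pc were Slc7a8 (0.25), Igfals (0.26) and Bag3 (0.27), and the nearest to Gpt were Mgmt (0.23), Mcrip2 (0.23) and Gchfr (0.25).

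**Figure D5:**
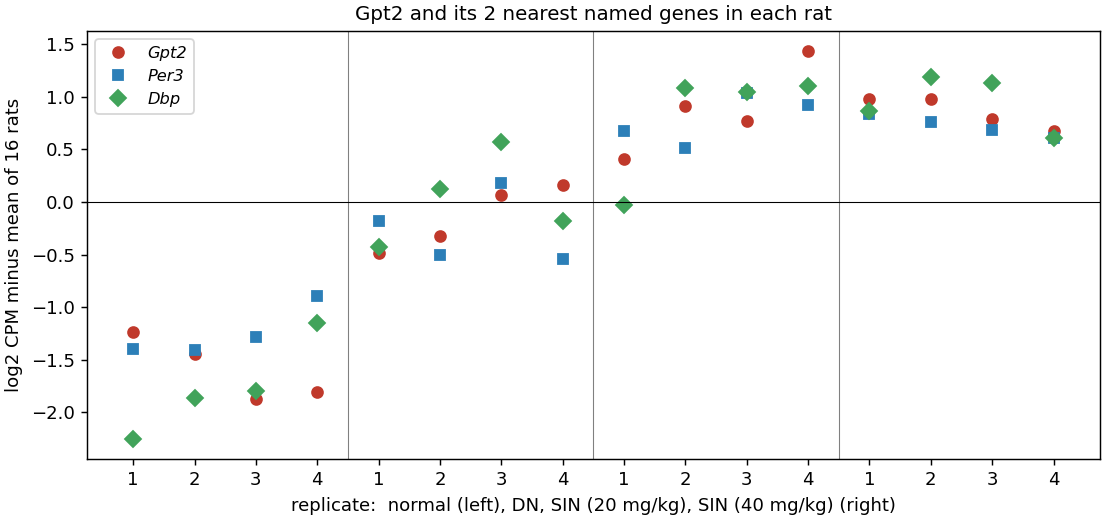
Log2 CPM minus the mean of 16 rats (vertical axis) for Gpt2, Per3 and Dbp in each rat, with groups from left to right and the replicate number below. All 3 genes are below their mean in all 4 normal rats, and above it in all SIN rats except that Dbp is near 0 in replicate 1 of the SIN (20 mg/kg) group.

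In the lists of related genes that follow, calls in DN over normal are to be read against the 19.5% of all genes called, 8.74% higher and 10.8% lower. Calls in SIN over normal are to be read against 6.36% of all genes at 20 mg/kg and 5.97% at 40 mg/kg. By direction, these shares were 2.77% higher and 3.58% lower at 20 mg/kg, and 2.28% higher and 3.69% lower at 40 mg/kg. Of 28 other genes of gluconeogenesis and carbon supply tested, 4 rose and 6 fell against the normal group, with a median log2 fold change of 0.17. Slc16a1, a carrier of lactate and pyruvate, fell by 1.61 on the log2 scale (SE 0.20, adjusted p = 0.00324). Pklr, a pyruvate kinase of glycolysis, fell by 0.92 (SE 0.14), and Pdk4, a kinase that turns off pyruvate dehydrogenase, fell by 1.35 (SE 0.27). G6pc3, the glucose-6-phosphatase found in most tissues, rose by 0.79 (SE 0.14), while G6pc itself did not pass the test. Slc16a1, Pklr and Pdk4 were also lower than normal in both SIN groups, with log2 fold changes of -2.20, -1.19 and -1.40 at 20 mg/kg and of -2.03, -1.14 and -1.14 at 40 mg/kg. At 40 mg/kg G6pc3 (0.51), Ldhb (0.50), a lactate dehydrogenase subunit, and Fbp2 (1.01), the muscle form of the bisphosphatase, rose as well.

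Of 21 other genes of ammoniagenesis and glutamine handling, 1 rose and 2 fell in the DN over the normal group, with a median log2 fold change of 0.04. Dlst, a subunit of the 2-oxoglutarate dehydrogenase complex, rose by 0.43 (SE 0.11, adjusted p = 0.0254). Slc25a13, a mitochondrial aspartate-glutamate carrier, fell by 0.44 (SE 0.13, adjusted p = 0.0402), and Slc4a4, a sodium bicarbonate cotransporter of the proximal tubule, fell by 0.92 (SE 0.28, adjusted p = 0.0489). Slc25a13 was lower than normal in the SIN groups too (-0.45 and -0.40). Slc38a2, another glutamine carrier, was lower with 20 mg/kg (-0.91, SE 0.23, adjusted p = 0.0437), and Slc6a19, a carrier of neutral amino acids, was higher with 40 mg/kg (0.70, SE 0.18, adjusted p = 0.0457).

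Among 13 other transaminases, 6 rose and 1 fell in the DN over the normal group, with a median log2 fold change of 0.50. Aadat, which acts on aminoadipate and kynurenine, rose by 1.00 (SE 0.15, adjusted p = 0.00570), from a mean of 1344 to 2684 CPM. Bcat2, for branched-chain amino acids, rose by 0.73, Oat, for ornithine, by 0.54 and Got2, the mitochondrial aspartate transaminase, by 0.50. Psat1, of serine synthesis, fell by 0.69 (SE 0.17, adjusted p = 0.0238). Against the normal group 4 rose and 1 fell at 20 mg/kg and 3 rose and 1 fell at 40 mg/kg. Aadat (0.86 and 0.59) and Bcat2 (0.66 and 0.65) rose and Psat1 (-1.23 and -0.82) fell at both doses, Abat (0.59) and Kyat3 (0.73) rose at 20 mg/kg, and Got1 (0.48) rose at 40 mg/kg.

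Of 27 hormonal and transcriptional regulators of Pck1 and G6pc, 4 rose and 3 fell in the DN over the normal group, with a median log2 fold change of -0.02. Nr1d1, a clock repressor, rose by 1.07 (SE 0.16, adjusted p = 0.00551), Nr0b2, a nuclear receptor that represses others, by 1.15 (SE 0.23, adjusted p = 0.0141) and Klf15, a factor that acts on amino acid breakdown and gluconeogenesis, by 0.71 (SE 0.14, adjusted p = 0.0128). Creb1, which binds the cAMP response element, fell by 0.79 (SE 0.17, adjusted p = 0.0172). Klf15 was above normal in the SIN groups (0.54 and 0.84). At 40 mg/kg Igfbp1, an insulin-repressed gene, rose by 1.48 (SE 0.31, adjusted p = 0.0206), while Adra1a, an adrenergic receptor, fell by 0.74.

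Of 19 target genes of ATF4, the amino acid stress factor for which TGATGNAA is a known binding element, 1 rose and 1 fell in the DN over the normal group, with a median log2 fold change of 0.12. Atf5 rose by 0.50 (SE 0.10, adjusted p = 0.0124) and Psat1, which is in this list too, fell. In the SIN groups Psph, of serine synthesis, was below normal at both doses (-0.97 and -0.83), and Chac1 was above normal at 20 mg/kg (1.74, SE 0.45, adjusted p = 0.0481). In each of the 5 lists, 0 genes were called by the quasi-likelihood test between either SIN group and the DN group, whereas DESeq2 called up to 2 genes and the exact test up to 1 gene of a list. At an unadjusted p under 0.05 these were 4, 1, 3, 7 and 3 genes at 20 mg/kg and 3, 3, 3, 9 and 2 genes at 40 mg/kg, in the order in which the lists are given here, of 28, 21, 13, 27 and 20 tested genes (19 for the last list at 40 mg/kg), beside 15.4% and 17.1% of all genes.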

How the data were processed

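Kidney RNA of 16 rats was sequenced from poly(A)-selected libraries. The authors aligned trimmed reads with TopHat to Rnor_6.0 and deposited a table of estimated counts for 35849 genes, not normalized; the submitters' processing notes also name Bowtie, RSEM and edgeR, without a role, and whether counting used strand is not given in the sources used here. Of the nonzero values 74.3% were whole, within 1e-09, and all were rounded. Totals were 19616312 to 25217030 per rat. The table also holds 4 libraries that match no sample record and 5 columns of means, which were not used.

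Counts were tested in R 4.3.3 with edgeR 4.0.16 (glmQLFit and glmQLFTest, TMM, filterByExpr, the 8 rats of 2 groups) in 6 comparisons, with Benjamini-Hochberg adjustment over all genes tested. CPM used TMM factors over 16 rats (0.903 to 1.06), and log2 CPM a prior count of 2. Where the labels call samples replicates they are taken as separate rats, and p-values measure the spread between these samples. Alternatives were DESeq2 1.42.0, edgeR's exact test, RLE in place of TMM, a filter of none or of 10 or more counts in each rat, one fit over all 16 rats, a call rule with an absolute log2 fold change of 1 or more, a replicate block and each rat left out. The steps were tested on simulated data. Figures were drawn in Python 3.11.15.

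The 9 genes, the gene lists and the alternatives were chosen with earlier results of these data known. Named from each list are at most the 4 genes with the smallest unadjusted p in DN over normal, and those called in a SIN comparison, 1 of which is not reported here. Similar genes were sought among those with a mean of at least 1 CPM. Slc37a4 was chosen for display beside the marker sums after the values were seen.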

Additional observations from a re-analysis of the deposited data

Results flagged for a closer look

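Glud1 in replicate 4 of the DN group, at 1129 CPM, stood apart from the other DN rats, which were at 923 to 942 CPM. Its gap to the nearest rat relative to the range of the group exceeded the 95% critical value of Dixon's test for 4 samples. It was the single such case among 36 groups of 4 rats (9 genes in 4 groups), where chance alone flags about 1 in 20. In the same rat Pck1, Fbp1, G6pc, Slc37a4, Gpt and Gpt2 were also the highest of the DN group. None of the 9 genes differed between the doses past the adjusted threshold of the quasi-likelihood test.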

How the results depend on the processing

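Of 810 alternative values of the 9 genes, 730 kept their direction and their side of the threshold, 18 passed it anew, 12 lost it and 50 turned direction, none of them a called value. The number of genes called in DN over normal was 4, was 6 with DESeq2 and 5 with the exact test (26.4% and 21.5% of all genes), was 1 where a log2 fold change of 1 or more was also required, and ran from 2 to 5 with a rat left out (2 without normal replicate 3, normal replicate 4 or DN replicate 1, and 5, Pck1 included, without DN replicate 4), while the share of all genes called ran from 4.81% to 23.6%. In SIN (20 mg/kg) over DN it was 0, 3 with DESeq2 and 2 with the exact test (1.4% and 0.566% of all genes), in SIN (40 mg/kg) over DN 0 and 2 with each of these tools (2.73% and 1.04%), and 0 with any rat left out at either dose. In SIN (20 mg/kg) over normal it was 2, was 1 with the fold threshold and ran from 1 to 2 with a rat left out. In SIN (40 mg/kg) over normal it was 1, was 2 with DESeq2 and in one fit over 16 rats, and ran from 1 to 2 with a rat left out (2 without normal replicate 2, where Pck2 passed). The cause was not tested.

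Same-numbered rats of different groups correlated between -0.239 and 0.245, with 2 of 24 pairs over 0.1. In 3 of the 24 pairs the rat of the first group correlated best with its own number in the other group. The numbers were therefore not taken to pair the rats. With the replicate block, 3 genes were called in DN over normal in place of 4, Gpt being lost, and Slc37a4 turned to -0.013 on the log2 scale. Glud1 in SIN (20 mg/kg) over DN turned from 0.0055 to -0.00054 with DESeq2 and -0.00053 with RLE normalization. The other turns came from leaving out 1 rat, with these log2 ranges. In DN over normal, Fbp1 -0.10 to 0.22 and Slc37a4 -0.12 to 0.16. In SIN (20 mg/kg) over DN, Fbp1 -0.24 to 0.084, G6pc -0.022 to 0.36, Slc37a4 -0.24 to 0.037, Glud1 -0.049 to 0.080 and Gpt -0.15 to 0.11. In SIN (40 mg/kg) over DN, Fbp1 -0.26 to 0.081, Slc37a4 -0.10 to 0.19 and Glud1 -0.050 to 0.12. In SIN (20 mg/kg) over normal, Pck1 -0.16 to 0.11 and Fbp1 -0.10 to 0.050. In SIN (40 mg/kg) over normal, Pck1 -0.42 to 0.0053, Fbp1 -0.18 to 0.055 and Slc37a4 -0.10 to 0.16. In SIN (40 mg/kg) over SIN (20 mg/kg), Pck1 -0.36 to 0.019, Fbp1 -0.16 to 0.068, G6pc -0.042 to 0.40, Slc37a4 -0.019 to 0.24, Slc38a3 -0.13 to 0.11, Glud1 -0.067 to 0.11 and Gpt2 -0.21 to 0.15. Of the 3 genes with the fewest reads, Gpt rested on 139 to 400, Gpt2 on 137 to 1285 and Pck2 on 349 to 594 estimated counts per rat.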
